A study of Homo sapiens with 9 samples.

Results

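Messenger RNA was compared between A549 cells that received either of 2 siRNAs against REV1 and A549 cells that received a scramble siRNA. A549 is an established human lung adenocarcinoma line. All 9 libraries of the series were used, namely 6 labelled SiREV1#1 or SiREV1#2 (3 of each) and 3 labelled Scramble, and every culture was transfected with Lipofectamine RNAiMAX and harvested 48 h later, so the scramble cells shared the transfection and no untransfected library was compared. Each siRNA library was paired with the scramble library of the same replicate number, which gave 6 pairs. Genes with a mean above 1 FPKM (fragments scaled by transcript length and library depth) were tested, 11429 of 18143. Of these, 731 (6.4%) were higher and 1315 (11.5%) were lower in all 6 pairs on the log2(FPKM + 1) scale. Each scramble library entered 2 pairs, so the 6 pairs are not independent. The question was which differences were shared by 2 siRNAs of unrelated sequence directed at the same mRNA.

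REV1 is a Y-family DNA polymerase that inserts cytosine opposite damaged bases and abasic sites, and its C-terminal part is a docking platform for the other translesion polymerases. Translesion synthesis lets a replication fork pass a lesion at the price of errors, and monoubiquitination of PCNA by RAD18 is the step that recruits these polymerases. An siRNA guides AGO2 to a fully matched mRNA and cuts it. The guide can also lower partly matched mRNAs through its bases 2 to 8, the seed, as a microRNA does.

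Both siRNAs match the coding sequence of REV1 (chr2:99400475-99490035, minus strand, GRCh38). The site of SiREV1#1 lies whole within exon 18 of 23 of transcript REV1-201, at chr2:99404474-99404492. The site of SiREV1#2 takes its first base from exon 4 (position 99449336) and its other 18 bases from exon 5 (99442452 to 99442469). The sites are printed because they define the treatment, with the 7 bases that pair with guide bases 2 to 8 in capitals.
SiREV1#1 site, REV1-201 bases 3226 to 3244: gaacagtgacgCAGGAATa
SiREV1#2 site, REV1-201 bases 579 to 597: gcatcaaagctGGACGACt

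Across genes the pooled comparison was weak, although the direction of many genes was shared. When both siRNAs were fitted as 1 group against scramble with replicate number as a block (limma-trend, 5 residual degrees of freedom), 0 genes were higher (0%) and 0 were lower (0%) at an adjusted p under 0.05. At an unadjusted p under 0.05 there were 1170 genes, 459 of them higher and 711 lower. The smallest adjusted p was 0.0522 and was shared by 5 genes, SERTAD2, NRGN, LMBR1L, REV1 and STK40. edgeR on the count columns also called 0 genes (1071 at an unadjusted p under 0.05), while DESeq2 on the same columns (8 libraries) called 119 higher and 53 lower. In this fit a difference between the siRNAs counts as spread. The siRNAs differed from each other at 4167 genes (36.5%), and fitting them as 2 separate groups lowered the median residual SD from 0.244 to 0.158 on the log2 scale.

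With 3 separate groups and the same block, the mean of both siRNA effects was called higher at 327 genes (2.86%) and lower at 763 (6.68%). Of these, 258 (2.26%) and 497 (4.35%) also moved one way in all 6 pairs, 755 genes in all, and 335 called genes did not. The siRNAs differed in size at 364 of the 755 genes (48.2%), and at 481 (23.5%) of the 2046 genes that moved one way in all 6 pairs, against 36.5% of all genes. Choosing genes by one direction in all pairs leaves out opposite shifts, so that choice favours a share below 36.5%. These counts depended on single libraries. The 3-group fit called 7 higher and 27 lower without scramble replicate 3, 7 and 39 without scramble replicate 2, and 125 and 247 without scramble replicate 1. It called 1327 and 2035 without SiREV1#1 replicate 1, and 531 and 1194 without SiREV1#2 replicate 1. Leaving out replicate 2 or 3 gave 139 and 393 or 126 and 381 for SiREV1#1, and 90 and 273 or 75 and 204 for SiREV1#2.

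Most of the shared shifts were small. The median of the weakest of the 6 pair differences was 0.098 among the genes higher in all pairs and 0.099 among those lower, in log2 units. It was under 0.1 for 1033 of the 2046 genes and under 0.05 for 607. It reached 0.2 for 178 higher and 279 lower genes, 0.5 for 21 and 31, and 1 for 0 genes. The mean difference was 2-fold or more for 9 higher and 32 lower genes. A further 2728 genes (23.9%) moved one way in 5 of the 6 pairs, with a median absolute mean difference of 0.20 against 0.36 for the genes with 6. All siRNA libraries lay above all scramble libraries for 162 genes (1.42%) and below all of them for 279 (2.44%). Among genes moving one way in all pairs, the excess of lower genes depended on the scale. With FPKM as deposited 35.7% of them were higher. The share was 50.3% after TMM scaling, which aligns the bulk of genes between libraries (1015 higher and 1003 lower), and 47.0% after upper-quartile scaling. In all pairs on each of the 3 scales 720 genes were higher (6.3%) and 936 were lower (8.19%). The 3-group fit still called more lower genes, 628 against 425 higher after TMM and 656 against 410 after upper-quartile scaling.

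The libraries held 13059082 to 20166451 estimated counts in the 8 with a count column of their own, the lowest being SiREV1#1 replicate 1. In every group replicate 1 stood apart from replicates 2 and 3, by more than 2-fold at 16.7% to 23% of genes. Of 12 epithelial and adenocarcinoma markers 7 had a median above 1 FPKM, among them KRT8, KRT18, CDH1 and ALDH1A1, while the lung lineage markers NKX2-1, SFTPC and NAPSA were below 1 FPKM in every library and SFTPB ran from 0.3 to 2.84 FPKM (median 0.55). The 5 fibroblast markers summed to 0.5 to 1.01 FPKM in scramble and 0.55 to 1.77 FPKM in siRNA libraries, and the 4 endothelial markers to at most 0.14 FPKM, with COL1A2, DCN, CDH5 and KDR at or near 0. Of 5 immune markers 3 were in the files, of which PTPRC and LYZ stayed below 1 FPKM and CD68 ran from 18.3 to 81.6 FPKM.

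REV1 was the check of the labels and was lower in every siRNA library. It stood at 7.23, 7.9 and 8.44 FPKM in scramble replicates 1 to 3, at 2.6, 2.92 and 3.36 FPKM after SiREV1#1, and at 3.62, 3.36 and 3.18 FPKM after SiREV1#2. The groups did not overlap, and the siRNA mean was 3.17 ± 0.36 FPKM (SD, n = 6) against 7.86 ± 0.61 FPKM (SD, n = 3). The pooled difference was -1.09 on the log2(FPKM + 1) scale (SE 0.13, adjusted p = 0.0522, limma), with an adjusted p of 0.0023 in the 3-group fit. Moving the scramble label among the 3 libraries of each number gave p = 0.037 (exact permutation test, two-sided, 27 arrangements), the smallest value this design allows. The siRNAs did not differ detectably, by -0.15 with a 95% interval of -0.41 to 0.11. REV1 shares exonic positions with EIF5B on the opposite strand, and the strandedness of the libraries was not stated.

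**Figure D1:**
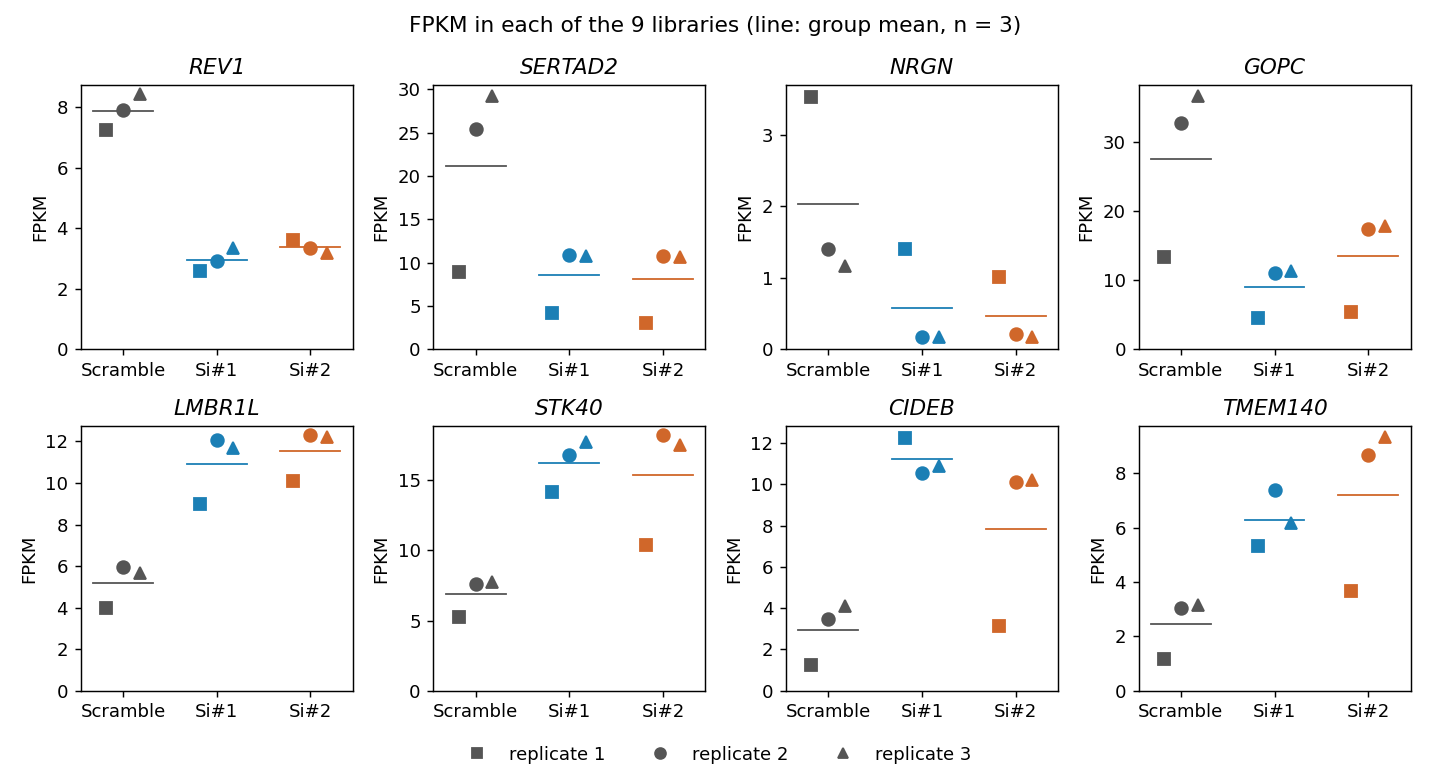
FPKM in each of the 9 libraries for REV1, SERTAD2, NRGN and GOPC (top row) and LMBR1L, STK40, CIDEB and TMEM140 (bottom row), by group on the x axis, with replicate 1 as squares, replicate 2 as circles, replicate 3 as triangles and a line at each group mean (n = 3). REV1 separates the groups whole (2.6 to 3.62 FPKM against 7.23 to 8.44), whereas SERTAD2 separates them only within a replicate number.

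SERTAD2, a SERTA-domain coregulator of E2F and DP transcription factors, had the largest weakest pair of the lower genes (chr2:64631621-64751005, minus strand). It stood at 8.9, 25.4 and 29.2 FPKM in scramble, at 4.18, 10.9 and 10.8 FPKM after SiREV1#1 and at 2.99, 10.8 and 10.6 FPKM after SiREV1#2. Scramble replicate 1 lay below 4 siRNA libraries, so the groups overlapped, but every siRNA library was below the scramble library of its number. The pooled difference was -1.22 (SE 0.13, adjusted p = 0.0522, limma), and the adjusted p was 0.0023 in the 3-group fit. SiREV1#1 minus SiREV1#2 was 0.14, with a 95% interval of -0.13 to 0.41 that includes 0. The study had chosen SERTAD2 on these libraries, so its direction here is not independent evidence. Outside these libraries the study reported lower SERTAD2 by qPCR and Western blot after REV1 silencing. It also reported less SERTAD2 protein after a small-molecule inhibitor of REV1.

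Lower genes with the next largest weakest pairs acted in unrelated places. NRGN, the neuronal calmodulin-binding protein neurogranin, was at 3.53, 1.41 and 1.16 FPKM in scramble, 1.4, 0.17 and 0.17 after SiREV1#1 and 1.01, 0.21 and 0.17 after SiREV1#2. At these levels the log2(FPKM + 1) difference of -0.98 understates the change in FPKM. GOPC, a Golgi PDZ-domain protein that handles CFTR traffic, was at 13.4, 32.8 and 36.7 FPKM in scramble, 4.62, 11.1 and 11.4 after SiREV1#1 and 5.37, 17.4 and 17.9 after SiREV1#2. For both genes the groups overlapped when replicate numbers were ignored, and GOPC was lower after SiREV1#1 than after SiREV1#2 by 0.46 (adjusted p = 0.017, 3-group limma fit).

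BRMS1, a subunit of SIN3-HDAC corepressor complexes, separated the groups: 43.8, 53.3 and 49.2 FPKM in scramble against 19.5 to 28.8 FPKM in the siRNA libraries (-1.04, SE 0.15). MRS2, the magnesium channel of the inner mitochondrial membrane, was at 20.9, 14.4 and 14.3 FPKM in scramble and at 4.58 to 8.78 FPKM in the siRNA libraries (-1.13, SE 0.19). YY2, a zinc-finger factor related to YY1 whose gene lies within MBTPS2, was at 1.82, 2.45 and 2.99 FPKM against 0.38 to 1.19 FPKM (-1.01, SE 0.17). None of these 3 overlapped between the groups. UHRF1, which reads hemimethylated DNA and brings in DNMT1, was at 10, 4.96 and 4.86 FPKM in scramble, 4.43, 2.39 and 2.63 after SiREV1#1 and 3.04, 1.48 and 1.3 after SiREV1#2. Its difference was -0.84 after SiREV1#1 and -1.36 after SiREV1#2, unequal in the 3-group fit (adjusted p = 0.0076).

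The rest of the 12 lower genes were KIF2C, TUBGCP2, NEFL and C6orf141. KIF2C, a kinesin that depolymerizes microtubules at kinetochores, varied little between pairs, with 16.4, 39.4 and 41.6 FPKM in scramble, 9.53, 24.2 and 22.4 after SiREV1#1 and 9.82, 24.3 and 24.9 after SiREV1#2. Its 2 siRNA effects were -0.76 and -0.69. TUBGCP2, a subunit of the gamma-tubulin complex, was at 19.6, 17.4 and 15.7 FPKM in scramble against 6.4 to 10.8 FPKM, without overlap. NEFL, the light neurofilament chain, stood -0.68 from scramble after SiREV1#1 and -1.60 after SiREV1#2 on the log2 scale, and this was the largest difference between the siRNAs among these higher and lower genes (0.92, adjusted p = 0.0006). C6orf141 was at 2.98, 5.68 and 5.83 FPKM in scramble and at 1.45 to 3.23 FPKM in the siRNA libraries.

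LMBR1L, a membrane protein named as a receptor for lipocalin 1, led the higher genes. It was at 3.97, 5.96 and 5.68 FPKM in scramble, 8.97, 12.1 and 11.7 after SiREV1#1 and 10.1, 12.3 and 12.2 after SiREV1#2. The groups did not overlap, and the pooled difference was 0.99 (SE 0.11, adjusted p = 0.0522, limma). STK40, a kinase-like adaptor of the COP1 ubiquitin ligase, was at 5.25, 7.64 and 7.72 FPKM in scramble and at 10.4 to 18.2 FPKM in the siRNA libraries, also without overlap (1.09, SE 0.13, adjusted p = 0.0522). CIDEB, a lipid-droplet protein of the CIDE family, was at 1.22, 3.46 and 4.11 FPKM in scramble, 12.3, 10.6 and 10.9 after SiREV1#1 and 3.15, 10.1 and 10.2 after SiREV1#2. Its groups overlapped through SiREV1#2 replicate 1, and its exons overlap those of LTB4R2 and NOP9 on the opposite strand. The study reported that its qPCR of CIDEB did not match the sequencing.

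Further higher genes were close to 2-fold. TMEM140 was at 1.16, 3.05 and 3.15 FPKM in scramble and 3.66 to 9.32 FPKM in the siRNA libraries. TOR2A, a torsin ATPase of the endoplasmic reticulum, was at 3.66 to 3.86 FPKM against 7.25 to 12.2 FPKM, the highest value being that of SiREV1#1 replicate 1. ENTPD5, a nucleoside diphosphatase that aids glycoprotein folding, was at 5.45 to 7.09 FPKM in scramble and 12 to 15.9 FPKM in the siRNA libraries (1.07, SE 0.13). ARL2, a small GTPase of the tubulin folding pathway, was the most abundant of these, at 83.9, 75.3 and 68.6 FPKM in scramble against 117 to 172 FPKM. TMC7, a transmembrane channel-like protein, rose by 0.87 in the 3-group fit (adjusted p = 0.0029).

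DDAH1, which degrades the nitric oxide synthase inhibitor ADMA, was at 5.05, 11.6 and 13.8 FPKM in scramble, 14.8, 23.2 and 22.3 after SiREV1#1 and 11.9, 34.3 and 32.3 after SiREV1#2. OLFML3, a secreted olfactomedin-like protein, and KCNK3, the potassium channel TASK-1, were unequal between the siRNAs. OLFML3 was higher by 0.90 after SiREV1#1 and by 1.73 after SiREV1#2 (adjusted p of the difference 0.0027), and KCNK3 by 1.20 and 0.72 (adjusted p = 0.0096). The 10 genes chosen by the study on these libraries all moved one way in 6 pairs, as that choice favours. By the study's account its qPCR matched the sequencing for all of them except DDAH1 and CIDEB. DHRS2, a short-chain dehydrogenase, was at 2.61, 13.9 and 12.5 FPKM in scramble and 1.36 to 2.2 FPKM in the siRNA libraries. FAM81A was at 9.36, 2.07 and 1.97 FPKM against 0.59 to 4.37 FPKM, and PTPN20, a phosphatase with near-identical gene copies that can split reads, at 1.45 to 2.29 against 2.53 to 4.18 FPKM. FAM84B was lower in all 6 pairs (1.43, 1.04 and 1.37 FPKM against 0.16 to 0.94) but had a mean under 1 FPKM and was not tested.

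**Figure D2:**
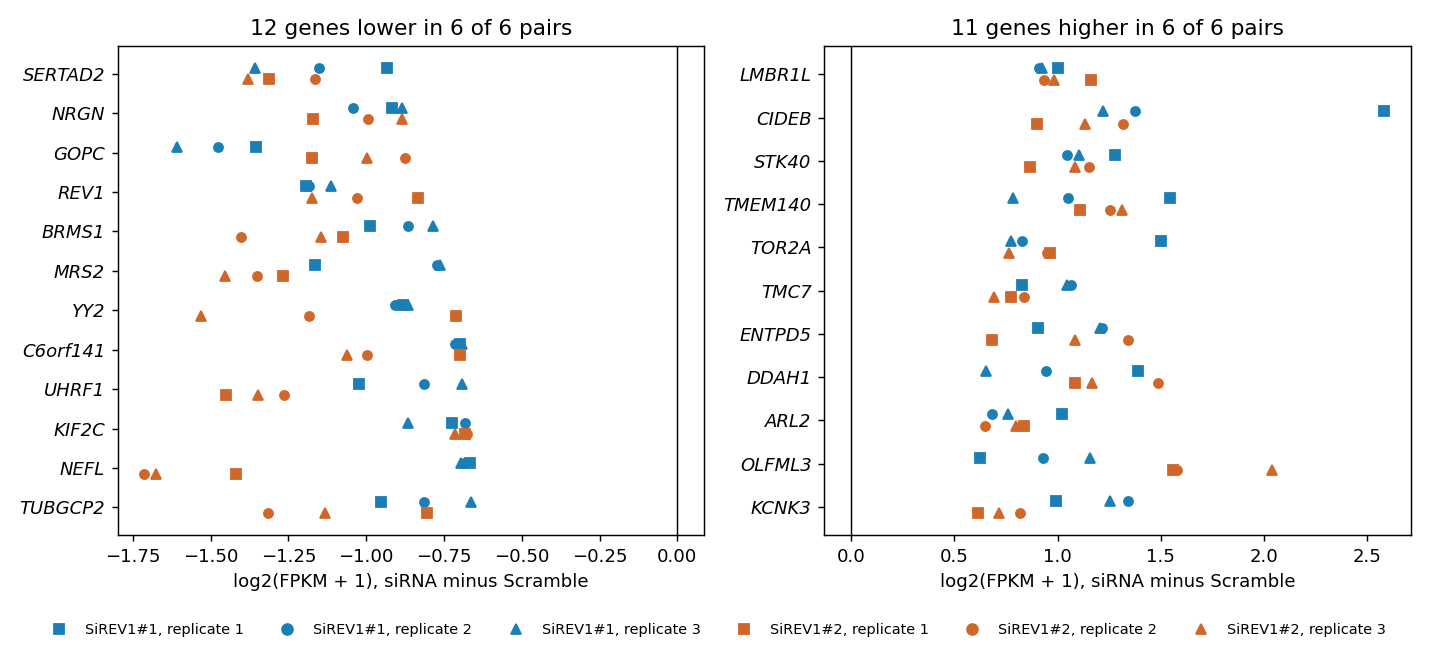
Difference in log2(FPKM + 1) between each siRNA library and the scramble library of the same number (x axis) for 12 lower genes (left) and 11 higher genes (right) with large weakest pairs, SiREV1#1 in blue and SiREV1#2 in orange. All points of a gene lie on one side of 0 by construction. KIF2C is tight, while CIDEB reaches farthest in SiREV1#1 replicate 1 and NEFL and OLFML3 are split by siRNA.

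Of the 27 genes named so far, 17 share exonic positions with another annotated gene, 14 of them with one on the opposite strand, and without stated strandedness reads of such partners cannot be told apart.

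Genes of DNA replication and the G1 to S transition were lower together. Of 38 tested, 28 were lower and 0 were higher in all 6 pairs, against 11.5% and 6.4% of all genes, and 25 were lower on each of the 3 scales. The list median was -0.49 against -0.047 over all genes, and the 3-group fit called 16 lower and 0 higher. In the 6 pairs the list median was -0.78, -0.41 and -0.38 after SiREV1#1 (replicates 1 to 3) and -0.27, -0.51 and -0.48 after SiREV1#2. The list includes the replicative helicase subunits MCM2 to MCM7, the licensing factors CDC6, CDT1 and ORC1, and the nucleotide enzymes RRM1, RRM2, TYMS and TK1. All of these were lower in all 6 pairs, but the 3-group fit did not call MCM2, MCM5, MCM6, CDT1, RRM1, RRM2 or TYMS. In bulk RNA, fewer cells in S phase and less of the list's mRNAs per cell cannot be told apart.

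GINS3, a subunit of the helicase that opens the fork, was at 5.89, 5.41 and 4.82 FPKM in scramble and 2.23 to 3.74 FPKM in the siRNA libraries, without overlap (-0.69, adjusted p = 0.0083 in the 3-group fit). TK1, thymidine kinase, was at 53.6, 41.2 and 38 FPKM against 24 to 35.8 FPKM, also without overlap. GINS2 was at 25.1, 12.8 and 11.8 FPKM in scramble, 14.6, 6.05 and 6.75 after SiREV1#1 and 21.6, 7.41 and 5.44 after SiREV1#2. Within each number both siRNA values lay below scramble. MCM4 was at 40.4, 9.88 and 9.12 FPKM, then 13.9, 5.16 and 4.91, then 30.4, 4.36 and 4.01, and its groups overlapped because replicate 1 was high in every group.

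Mitosis genes were lower in the same way, though less evenly. Of 36 tested, 21 (58.3%) were lower and 0 higher in all 6 pairs (18 lower on each scale), against 11.5% and 6.4% of all genes. The 3-group fit called 24 lower and 0 higher, and the list median was -0.51. The 2 siRNAs differed at 17 of the 36 genes, against 36.5% of all genes, and the list median was -0.69 after SiREV1#1 and -0.32 after SiREV1#2. The genes lower in all pairs include the kinases CDK1, PLK1, AURKB and BUB1, the cyclins CCNB1 and CCNB2, and MKI67, of which PLK1, CCNB1 and MKI67 were not called by the 3-group fit. BIRC5, the survivin subunit of the chromosomal passenger complex, was at 36.9, 41 and 43.3 FPKM in scramble and 21.2 to 32.6 FPKM in the siRNA libraries. INCENP, its scaffold, was at 16.5, 12 and 13.6 FPKM against 5.03 to 10.1 FPKM, and neither gene overlapped between groups. TPX2, the spindle activator of Aurora A, was at 56.4, 74.7 and 78.9 FPKM against 34.4 to 59.5 FPKM.

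Among genes of the Fanconi pathway and homologous recombination, 16 of 33 (48.5%) were lower and 0 higher in all 6 pairs, against 11.5% and 6.4% of all genes. The 3-group fit called 9 lower (median -0.25). Those lower in all pairs include FANCD2, which the 3-group fit called, and BRCA1, PALB2 and BARD1, which it did not. BLM, the Bloom helicase, was at 6.76, 5.12 and 4.89 FPKM in scramble and 2.47 to 4.66 FPKM in the siRNA libraries. UBE2T, the E2 enzyme for FANCD2 ubiquitination, was at 51, 36.3 and 35.2 FPKM against 25 to 38.9 FPKM, with overlap through replicate 1. RAD54L and XRCC2, both of recombination, were lower by 0.44 and 0.38 on the log2 scale (adjusted p = 0.031 and 0.032, 3-group limma fit).

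Of 29 genes listed for translesion synthesis and damage tolerance, 5 (17.2%) were lower in all 6 pairs and 0 were higher, against 11.5% and 6.4% of all genes. The 5 were REV1, RAD18, POLH, RPA1 and TIPARP, so the count includes the siRNA target itself. The list median was -0.15. After SiREV1#2 the list median was 0.002. RAD18, the ligase for PCNA monoubiquitination, was at 5.56, 11.9 and 13.6 FPKM in scramble, 2.72, 7.45 and 7.13 after SiREV1#1 and 3.38, 10.3 and 9.49 after SiREV1#2. POLH, the polymerase for ultraviolet photoproducts, was at 5.64, 7.56 and 8.03 FPKM, then 4.6, 6.96 and 6.97, then 3.09, 4.95 and 4.48. The siRNAs differed for both genes (-0.34 and 0.47, adjusted p = 0.042 and 0.0075), RAD18 being lower after SiREV1#1 and POLH after SiREV1#2. TIPARP, an ADP-ribosyltransferase, was counted in this list but is not a translesion polymerase or a known partner of one. It also differed between the siRNAs, with -1.12 after SiREV1#1 and -0.39 after SiREV1#2.

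Checkpoint genes split. Of 20 tested, 7 (35%) were lower in all pairs, among them CHEK2, CLSPN and TOPBP1, and 2 (10%) were higher, against 11.5% and 6.4% of all genes. The 3-group fit called 3 lower, CLSPN but not CHEK2 or TOPBP1 among them, and 2 higher. The higher pair was CDC25A, the phosphatase that opens S phase, at 2.48 to 3.64 FPKM in scramble and 3.88 to 6.32 FPKM in the siRNA libraries without overlap, and WEE1, the kinase that restrains CDK1, at 7.48, 11.4 and 12.1 FPKM against 9.21 to 27.1 FPKM. CDC25C and CDC25B, which open mitosis, were lower, CDC25B on the deposited scale but not on every scale. Of 20 SERTA and E2F genes, 7 (35%) were lower in all pairs (SERTAD2, E2F1, E2F2, E2F7, TFDP1, CDCA4 and RBL1) and 1 (5%), SERTAD3, was higher. The count includes SERTAD2, which the study chose on these libraries, and the 3-group fit called 7 lower and 0 higher. E2F1 was at 15.6, 9.34 and 8.54 FPKM in scramble and 3.46 to 11.6 FPKM in the siRNA libraries. TFDP1, the DP partner of E2F, stood at 34.6, 12 and 11.5 FPKM, then 18.9, 7.82 and 8.09, then 11.5, 2.68 and 1.89, and the gap between the siRNAs was 1.19 (adjusted p = 0.0016).

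**Figure D3:**
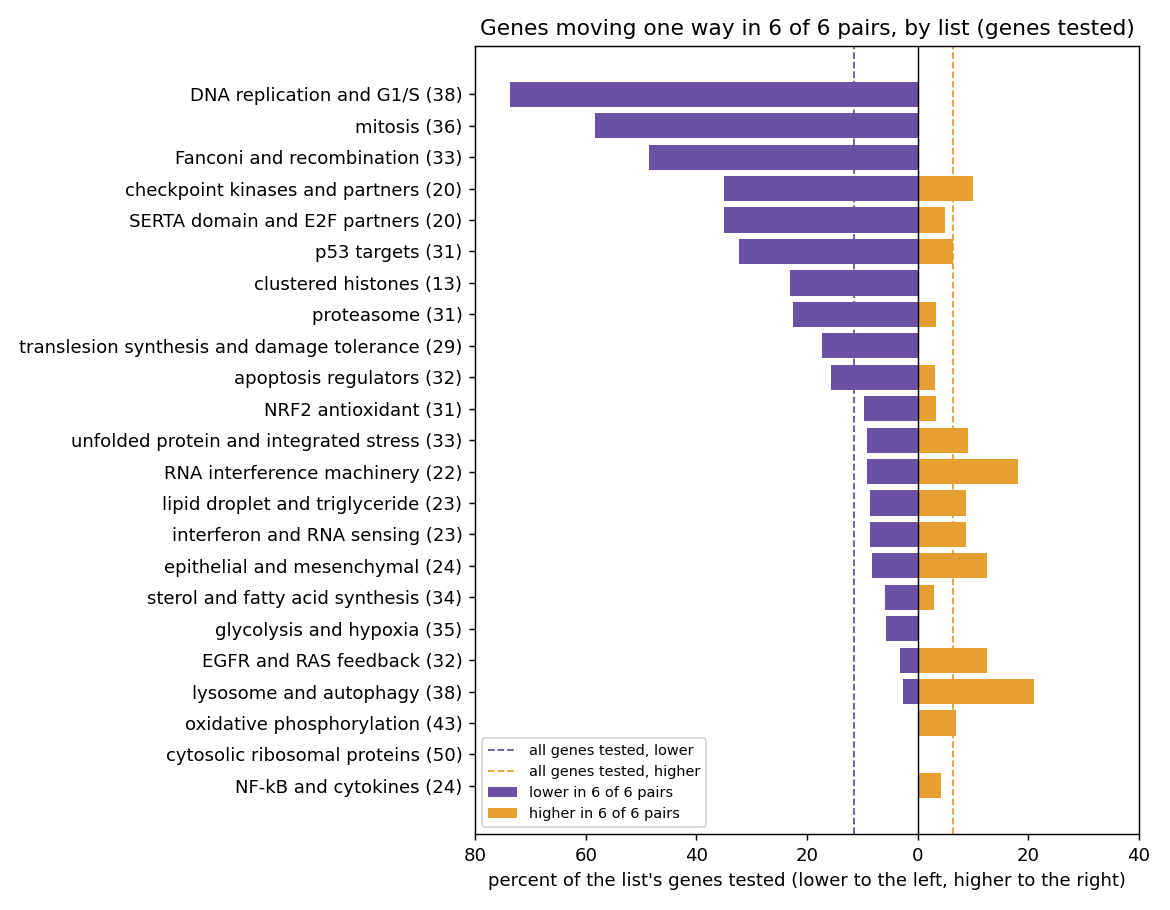
Share of each list's tested genes that were lower (left, purple) or higher (right, orange) in all 6 pairs, with the number tested in brackets and dashed lines at the shares of all genes tested. DNA replication and G1/S (28 of 38 lower), mitosis (21 of 36) and Fanconi and recombination (16 of 33) reach farthest to the left.

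Of 31 p53 targets 10 (32.3%) were lower and 2 (6.45%) higher in all 6 pairs, against 11.5% and 6.4% of all genes, with a median of -0.22. The 3-group fit called 6 lower and 2 higher. The list median was -0.073 after SiREV1#1 and -0.38 after SiREV1#2, and the siRNAs differed at 16 of the 31 genes. MDM2, the ubiquitin ligase of p53, was at 15, 38.8 and 38.5 FPKM in scramble, 3.76, 14.1 and 14.5 after SiREV1#1 and 13.4, 26 and 25 after SiREV1#2. GDF15, a stress cytokine, was at 42.9, 618 and 559 FPKM, then 20.8, 262 and 238, then 38.7, 374 and 404. Both were lower after both siRNAs and, against the order of the list medians, more so after SiREV1#1 (differences of -1.06 and -0.71, adjusted p = 0.0021 and 0.004). SESN2, a stress-induced regulator of mTORC1, was higher, by 1.17 after SiREV1#1 and 0.20 after SiREV1#2. AEN and PHLDA3 were lower in all pairs (-0.44 and -0.59) but missed the 3-group threshold (adjusted p = 0.053 and 0.097).

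Of 38 lysosome and autophagy genes 8 were higher (21.1%) and 1 lower (2.63%) in all 6 pairs, against 6.4% and 11.5% of all genes. The 3-group fit called 3 higher and 2 lower, against 2.86% and 6.68% of all genes. GAA, acid alpha-glucosidase, was at 24.8, 20.5 and 17.6 FPKM in scramble and 23.1 to 41.2 FPKM in the siRNA libraries. CTSA, cathepsin A, was at 42.4, 27.8 and 26.4 FPKM, then 71, 50 and 51.9, then 52.9, 30.1 and 32.3, more after SiREV1#1. ULK1, the kinase that starts autophagy, was higher by 0.38, and HEXA by 0.32 without passing the 3-group fit (adjusted p = 0.026 and 0.12). The list median was 0.07, and it was below 0 in the pair of SiREV1#1 replicate 1 (-0.16).

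The RNA interference machinery itself was tested because every library was transfected with an siRNA. Of 22 genes 4 were higher (TNRC6A, DICER1, LIN28B and CNOT6) and 2 lower (AGO2 and PRKRA) in all 6 pairs, 18.2% and 9.09% against 6.4% and 11.5% of all genes, so the lower share was no higher than the background. AGO2, the nuclease that siRNAs load, was at 5.29, 5.57 and 6.44 FPKM in scramble, 3.46, 3.4 and 3.79 after SiREV1#1 and 2.82, 3.55 and 3.43 after SiREV1#2. TNRC6A, the partner that carries out silencing, was at 11.9, 13.7 and 15.1 FPKM, then 19.9, 20.2 and 21.7, then 21.2, 22.4 and 20.2. DICER1, which makes microRNAs, was at 6.52 to 8.23 FPKM against 9.47 to 14.7 FPKM. The groups did not overlap for any of these 3 genes, and each passed the 3-group fit (adjusted p = 0.0081, 0.01 and 0.013). They were picked from the members moving in all pairs, and the groups did overlap for CNOT6. Of all genes, 1.42% had every siRNA library above every scramble library and 2.44% had every one below.

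The EGFR and RAS list had 4 of 32 higher (ERBB2, DUSP5, NRAS and ERRFI1) and 1 lower (HRAS). ERBB2 was at 16.8, 11 and 11.5 FPKM in scramble and 16.2 to 25.3 FPKM in the siRNA libraries, and DUSP5, an ERK phosphatase, at 12.8, 36.1 and 33.1 FPKM, then 15.4, 64.2 and 60.9, then 24.1, 88.9 and 96.7. Of 31 proteasome genes 7 were lower (22.6%) and 1 higher (3.23%), against 11.5% and 6.4% of all genes. On each of the 3 scales 2 were lower and 1 higher, where 8.19% of all genes were lower and 6.3% higher. The 3-group fit called 0 of the proteasome genes. Of 32 apoptosis regulators 5 were lower (15.6%) and 1 higher, the latter being BCL2L11, the BH3-only protein BIM, at 10.5, 2.59 and 2.49 FPKM, then 22.9, 3.33 and 4.45, then 18.1, 3.02 and 3.69. Of 33 unfolded protein and integrated stress genes 3 were higher, among them DNAJB9 (0.58), and 3 were lower, among them ATF4 (-0.17, adjusted p = 0.27 in the 3-group fit) and HERPUD1 (-0.22, adjusted p = 0.22). Of 24 epithelial and mesenchymal genes 3 were higher (LAMA3, EPCAM and ITGA5) and 2 lower (VIM and KRT7, VIM not on every scale). Against 6.4% higher and 11.5% lower of all genes, the shares were 12.5% and 3.12% for the EGFR and RAS list, 9.09% and 9.09% for the stress list and 12.5% and 8.33% for the epithelial and mesenchymal list, 1 to 4 genes in each case.

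In the other lists the count in either direction was 3 or fewer, while 6.4% of all genes were higher and 11.5% lower. None of 50 cytosolic ribosomal protein genes moved one way in all 6 pairs, and their median was 0.003. Oxidative phosphorylation had 3 of 43 higher (6.98%) and 0 lower, and clustered histones 3 of 13 lower (23.1%). NRF2 antioxidant genes had 1 of 31 higher (3.23%) and 3 lower (9.68%), and glycolysis and hypoxia 2 of 35 lower (5.71%). Interferon and RNA sensing genes had 2 of 23 higher and 2 lower (8.7% each), and lipid droplet genes 2 of 23 and 2 (8.7% each). Sterol and fatty acid synthesis had 1 of 34 and 2 (2.94% and 5.88%). The NF-kB and cytokine list had 1 of 24 higher and 0 lower, and its median was -0.41 after SiREV1#1 and 0.45 after SiREV1#2, so that a pooled median of 0.02 stood for opposite shifts. The siRNAs differed at 20 of these 24 genes. Together the 23 lists held 681 tested genes, of which 38 were higher and 126 lower in all 6 pairs, and 693 of the 731 higher and 1189 of the 1315 lower genes were in no list.

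**Figure D4:**
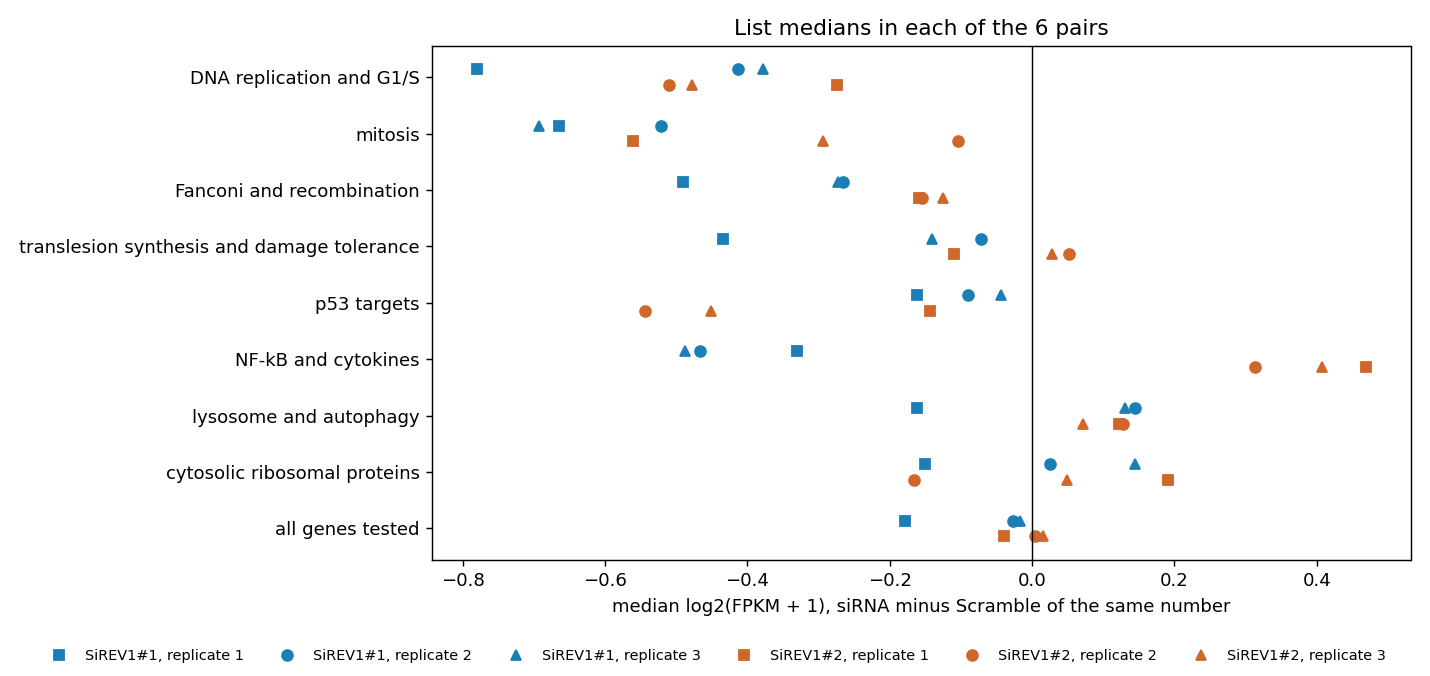
Median log2(FPKM + 1) difference over the genes of 8 lists and over all genes tested (x axis) in each of the 6 pairs, SiREV1#1 in blue, SiREV1#2 in orange, replicates as squares, circles and triangles. Replication genes run from -0.78 to -0.27 and mitosis genes from -0.69 to -0.10, on one side of 0, while the NF-kB list is split by siRNA.

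The list counts were also taken in parts of the pairs. In the 4 pairs of replicates 2 and 3, 31 replication, 22 mitosis and 17 Fanconi and recombination genes were lower, against 2082 of all 11429 genes. In the 2 pairs of replicate 1 these numbers were 33, 34 and 25 against 4412. Without SiREV1#1 replicate 1, the shallowest library, they were 28, 22 and 16 against 1689. The higher lysosome genes numbered 14 in replicates 2 and 3, 12 in replicate 1 and 13 without SiREV1#1 replicate 1, where 1949, 2045 and 1403 of all 11429 genes were higher, so the background also grew with fewer pairs.

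Because bases 2 to 8 of a guide can lower other mRNAs, the transcripts of the moving genes were searched for the word that pairs with them, which is CAGGAAT for SiREV1#1, GGACGAC for SiREV1#2 and TGTCACG for the scramble siRNA, on the sense strand and in the transcript with the longest 3′ UTR. The words differ throughout but can share an end base. Such a transcript was annotated in GENCODE for 11293 of the genes tested. GGACGAC was in the coding sequence of 1011 of them (8.95%), of 216 of the 1301 lower genes (16.6%) and of 26 of the 727 higher genes (3.58%). Among lower genes with a weakest pair of at least 0.2 it was in 76 of 276 (27.5%), and among the matching higher genes in 3 of 178 (1.69%). In the 3′ UTR it was in 1.25% of all, 2.84% of lower and 0.138% of higher genes.

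CAGGAAT was in the 3′ UTR of 15.6% of all, 19% of lower and 12.7% of higher genes, and in the coding sequence of 15.1%, 15.8% and 9.63%. The scramble word was in the coding sequence of 3.51% of all, 3.31% of lower and 4.68% of higher genes. Coding length and base content were alike, with medians of 1251 bases and 52.0% G and C over all genes, 1338 bases and 52.6% for the lower and 1203 bases and 53.2% for the higher genes. Of the 7292 genes with neither SiREV1 word in the coding sequence or 3′ UTR, 708 (9.71%) were lower and 552 (7.57%) higher in all 6 pairs. Of the 4001 genes with at least 1, 593 (14.8%) were lower and 175 (4.37%) higher. Of the 1011 with GGACGAC in the coding sequence, 216 (21.4%) were lower and 26 (2.57%) higher. The part of these matches in the differences was not tested.

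**Figure D5:**
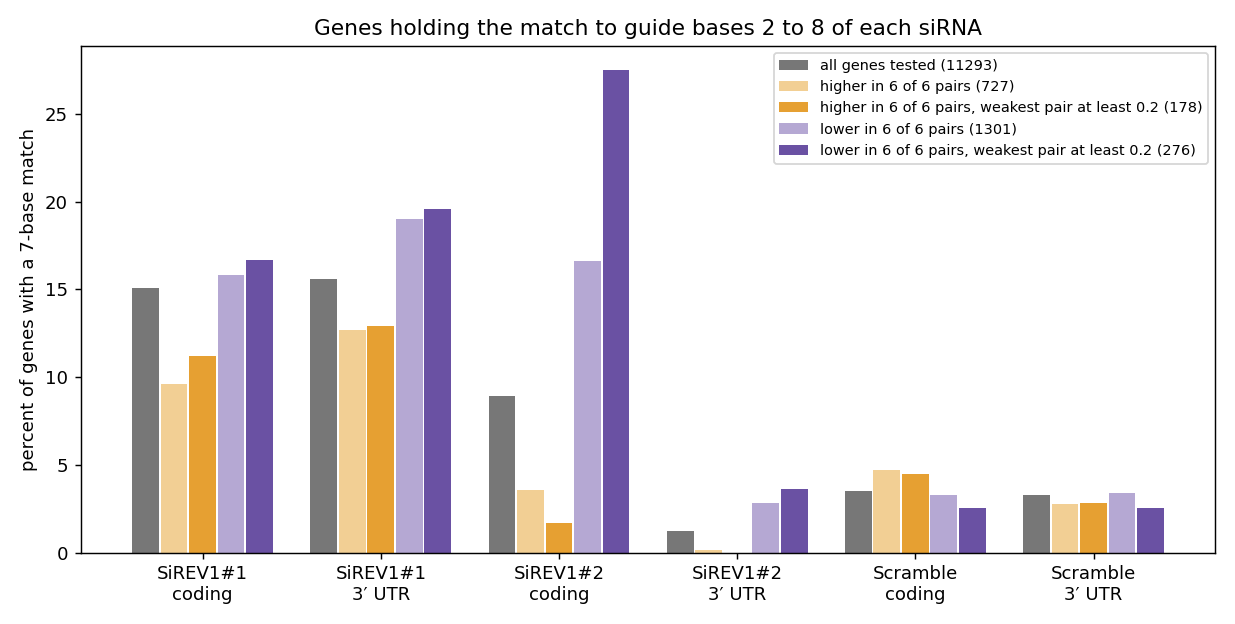
Percent of genes (y axis) whose coding sequence or 3′ UTR holds the 7-base match to guide bases 2 to 8 of SiREV1#1, SiREV1#2 or the scramble siRNA, for all genes tested and for genes higher or lower in all 6 pairs, with the number of genes in brackets. The SiREV1#2 match in the coding sequence stands out, from 8.95% of all genes to 27.5% of the lower genes with a weakest pair of at least 0.2.

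Of the 12 lower genes with the largest weakest pair, 9 (75%) held a word of at least 1 REV1 siRNA in the coding sequence or 3′ UTR, against 35.4% of all genes. GGACGAC was in the coding sequence of 6 (50%), against 8.95% of all genes. Both counts include REV1, which holds both words as the target. GOPC, KIF2C and C6orf141 held neither word. Of the 11 higher genes 2 (18.2%) held a word (DDAH1 and KCNK3, both CAGGAAT in the 3′ UTR). The coding matches of the 5 genes other than REV1 are printed with 11 bases before and 1 after, the match in capitals, to be read against the SiREV1#2 site above.
SERTAD2, SERTAD2-201 bases 709 to 715: tcactgctcgaGGACGACg
NRGN, NRGN-201 bases 275 to 281: tgctccaagccGGACGACg
MRS2, MRS2-201 bases 1178 to 1184: tttcattccttGGACGACa
UHRF1, UHRF1-201 bases 1494 to 1500: aagcactgcaaGGACGACg
TUBGCP2, TUBGCP2-201 bases 1750 to 1756: gaccccttcaaGGACGACc

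These genes were lower after SiREV1#1 as well, which their choice by all pairs required. What the matches contributed in them was not tested. SERTAD2-201 holds no CAGGAAT, and SERTAD2 was lower by 1.15 after SiREV1#1 and by 1.29 after SiREV1#2 on the log2 scale. NRGN was lower by 0.95 and 1.02, and also holds a second GGACGAC in its 3′ UTR. MRS2, UHRF1 and TUBGCP2 hold words of both siRNAs, and were lower by 0.90 and 1.36, by 0.84 and 1.36, and by 0.81 and 1.08.

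Promoters of the cell-cycle genes were searched for 3 motifs of proliferation genes, CCAAT (bound by NF-Y), TTTGAA (the cell-cycle homology region) and GGCGGGAA (an E2F site), on both strands and from 250 bases before to 50 after the RefSeq gene start. Matches of different motifs can share end bases, as in ATTGG, the other strand of CCAAT, followed by an E2F site. A promoter was listed for 9416 of the genes tested. CCAAT was in 37.1% of them, in 43.0% of the 1090 lower and 36.7% of the 618 higher genes, and TTTGAA was in 9.41%, 12.9% and 7.44%. GGCGGGAA was in 5.3%, 5.96% and 4.85%. Of 41 replication and mitosis genes lower in all 6 pairs, 31 (75.6%) held CCAAT and 12 (29.3%) held TTTGAA, and of the 20 in the same lists that were not, 11 (55.0%) and 9 (45.0%) did, so both kinds of list member held these motifs more often than promoters at large.

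The promoters of INCENP and E2F1 are shown as lower genes with 3 CCAAT motifs each, in capitals (ATTGG is CCAAT on the other strand). INCENP also holds TTTGAA. Both are from RefSeq on GRCh38.p14 and run 5′ to 3′ in the direction of the gene.
INCENP, chr11:62123761-62124060, plus strand: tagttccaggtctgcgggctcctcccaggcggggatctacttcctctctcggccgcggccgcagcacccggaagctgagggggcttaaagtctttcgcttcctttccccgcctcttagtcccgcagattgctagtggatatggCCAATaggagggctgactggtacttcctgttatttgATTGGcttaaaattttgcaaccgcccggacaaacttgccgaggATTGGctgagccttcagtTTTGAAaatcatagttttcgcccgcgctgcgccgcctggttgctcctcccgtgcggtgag
E2F1, chr20:33686336-33686635, minus strand: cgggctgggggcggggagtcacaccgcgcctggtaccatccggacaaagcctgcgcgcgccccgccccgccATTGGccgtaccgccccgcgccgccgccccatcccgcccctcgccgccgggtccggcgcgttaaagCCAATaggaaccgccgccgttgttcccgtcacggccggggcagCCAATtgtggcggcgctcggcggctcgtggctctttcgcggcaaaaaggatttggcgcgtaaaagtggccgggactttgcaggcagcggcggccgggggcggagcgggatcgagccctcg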

How the data were processed

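RNA of A549 cells was isolated with TRIzol, its fragmented mRNA was reverse transcribed and amplified by PCR, and single-stranded DNA circles were sequenced on the BGISEQ-500 platform by the authors, and the submitters' processing notes name StringTie 1.3.3b and hg38. The aligner is not given in the sources used here. The deposited files hold FPKM and estimated counts per gene for each library. The authors' file for SiREV1#2 replicate 3 repeats the count column of replicate 2, so counts were used for 8 libraries, rounded to whole numbers. Total counts per library ran from 13059082 to 20166451 and set the counting error of low genes.

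log2(FPKM + 1) of genes with a mean over 1 FPKM was fitted with limma-trend (limma 3.58.1, R 4.3.3), all siRNA libraries as 1 term or as 2 (the 3-group fit), replicate number as a block, with Benjamini-Hochberg adjustment over 11429 genes. Fold changes are on this scale, which understates low genes. edgeR 4.0.16 and DESeq2 1.42.0 on counts were alternatives, as were the block, pseudocount, filter, scaling and each library left out. The pooled limma, edgeR and DESeq2 fits were tested on simulated data. Same-numbered libraries deviated together from their group means (correlations of 0.734 to 0.929 over 9 pairs), so the numbers were taken as pairing the samples. For replicate 2 minus replicate 3 the correlations were -0.218 to 0.175, so this rests on replicate 1. The study states that its in vitro experiments were repeated independently; p-values measure the spread between these libraries.

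The named genes were to be those passing the pooled fit and moving one way in all 6 pairs. As the pooled fit passed 0, the 12 higher and 12 lower genes with the largest weakest pair, and up to 4 genes a list by smallest p, were taken by the pairs alone, a choice made after values were seen. One higher gene and 2 list members are not reported here by name. REV1 and the 10 genes chosen by the study were added. The lists and comparison were chosen with earlier results of these data known. A few further genes are named as list members moving in all pairs. Transcripts were those of GENCODE 29 (GRCh38), matched by Entrez gene ID.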

Additional observations from a re-analysis of the deposited data

Results flagged for a closer look

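Of 80 named genes, 6 had an siRNA library that lay far from the other 5 (Dixon's criterion on its gap to the nearest, which chance meets in about 1 of 20 groups), and in each it was a replicate 1 library. SiREV1#1 replicate 1 was highest for TOR2A (12.17 FPKM) and lowest for MDM2 (3.76 FPKM). SiREV1#2 replicate 1 was lowest for CIDEB (3.15 FPKM) and highest for CDC25B (108.1 FPKM), HERPUD1 (33.91 FPKM) and PSMD13 (56.87 FPKM).

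For 19 of these 80 genes the 2 siRNA effects differed in size under the 3-group limma fit (adjusted over all genes tested), although both had one direction. FAM84B, 1 of the 80, was not tested. The share that differed was 23.5% of the genes moving one way in all 6 pairs and 36.5% of all genes tested. The log2 difference, SiREV1#1 minus SiREV1#2, was -0.822 for OLFML3, 0.481 for KCNK3, -0.464 for GOPC, 0.456 for MRS2, 0.512 for UHRF1 and 0.921 for NEFL. It was -0.339 for RAD18, -0.730 for TIPARP and 0.471 for POLH. It was -0.606 for WEE1, -0.714 for GDF15, -1.060 for MDM2, -0.332 for DNAJB9 and 0.970 for SESN2. It was 0.356 for LAMA3, 0.600 for CTSA, -0.360 for DICER1, 1.194 for TFDP1 and -0.580 for DUSP5.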

How the results depend on the processing

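With 3 groups and the replicate block, the fit called 327 genes higher and 763 lower (258 and 497 with all pairs), and DESeq2 with the replicate block 119 and 53 (113 and 53), against 0 and 0. The REV1 difference of -1.088 and the SERTAD2 difference of -1.216 passed in the 3-group fit, and in DESeq2 as -1.253 and -1.236. A mean over 0.1 FPKM, no filter, or leaving out scramble replicate 1 gave 1 lower gene in the pooled fit and 1 in the fit and all pairs. Without one library the pooled fit called 0 higher and 0 to 1 lower genes, REV1 ran from -1.144 to -1.046 and SERTAD2 from -1.276 to -1.140. Fewer pairs let more genes move one way. Replicates 2 and 3 alone gave 1949 higher and 2082 lower genes, leaving out a library 800 to 1949 and 1453 to 2082 (1403 higher without SiREV1#1 replicate 1), and a minimum of 0.2 in each pair 178 and 279. The 3-group fit in replicates 2 and 3 alone called 2345 and 2984 (1555 and 1711 with all pairs), and without one library 7 to 1327 and 27 to 2035 (7 to 933 and 16 to 1173 with all pairs). The cause was not tested. For the other 77 named genes 1600 values were computed under alternatives; 0 changed sign, 95 passed a threshold that the pooled fit missed and 7 moved. Depth limits genes near 1 FPKM, where 1 library can set the weakest pair.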
